A study of Mus musculus with 12 samples.

Results

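The 42 genes described here encode the autophagy machinery, and were chosen by symbol from the 25655 genes listed for each library. Autophagy is the route by which a cell wraps part of its own cytoplasm in a double membrane, the autophagosome, and delivers it to lysosomes for breakdown. The ULK1 complex starts the process, a class III phosphoinositide 3-kinase marks the forming membrane with the lipid PI3P, ubiquitin-like conjugation systems attach ATG8 proteins (the LC3 and GABARAP families) to the membrane, and cargo receptors bind both the ATG8 proteins and the material to be degraded. In mouse CD8 T cells, core conjugation genes such as Atg5 and Atg7 are known to be needed for the survival of activated cells and the formation of memory. By role, the 42 genes comprise 5 of the ULK1 complex, 6 of the kinase complex, 6 for PI3P effectors, lipid transfer and scramblases, 11 for conjugation, 5 for ATG8 proteins, 5 for cargo receptors and 4 for tethering and fusion.

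Polyadenylated RNA of CD8 T cells was profiled in 12 libraries, with cells taken from the spleens of female C57BL/6 animals. The groups, with 3 libraries each, were Ezh2-deficient (KO) and wild type (WT) cells at day 3, and KO and WT cells at day 5. Ezh2 is the methyltransferase of Polycomb repressive complex 2 that sets the repressive histone mark H3K27me3. In all groups, naive cells (low in CD44, high in CD62L) were activated for 2 days by plate-bound antibody to TCR-β (3 µg/ml) together with antibody to CD28 (1 µg/ml). IL-2 at 10 ng/ml was present then and during the 1 or 5 days of culture that followed. Day 5 does not follow from these times, so the days are named after the sample titles. The allele, the Cre driver, the deleted part of Ezh2 and whether the replicates came from separate mice are not given in the labels, so p-values measure only the spread between these libraries.

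The libraries hold tags near the 3′ ends of transcripts, and levels are counts of reads scaled to the library total (CPM), which do not scale with gene length. Libraries held 1545391 to 2011247 reads, so that 1 read was worth 0.497 to 0.647 CPM, and 11257 to 11973 genes had a read. The targeted gene, Ezh2, had 377, 334 and 311 CPM in KO day 3, against 357, 374 and 409 CPM in WT day 3, and the groups overlapped (a difference of −0.16 ± 0.15 SE on the log2 scale, limma adjusted p = 0.499). At day 5 the levels were 159, 283 and 161 CPM in KO, against 306, 319 and 316 CPM in WT (−0.70 ± 0.15 SE, limma adjusted p = 0.000583). Because the deleted part is not given, these tags may lie outside it and do not check the genotype. "KO" and "WT" are therefore the labels' names throughout. KO day 5 replicate 2 stood apart from the other KO day 5 libraries in Ezh2 and in its share of mitochondrial reads, which was 2.07% there, against 3.00% and 3.12% in the others. At day 3 this share also moved with genotype, at 3.71% to 4.02% in KO and 3.18% to 3.22% in WT. More genes had a read in KO than in WT on both days (11859 to 11973 against 11257 to 11410 at day 3, 11705 to 11798 against 11459 to 11488 at day 5). Read totals were higher in KO at day 3 and lower in KO at day 5, without overlap. The part of these measures in the results was not tested.

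A gene was tested where at least 3 of the 12 libraries had 1 CPM or more, which left 11417 genes and 41 of the 42 members. All 41 had at least 1 CPM in all 12 libraries. The exception was Atg4c, one of the ATG4 proteases, with 7 reads over the KO day 3 libraries, 0 reads in WT day 3, 2 reads in KO day 5 and 2 reads in WT day 5. A count of 0 over the WT day 3 libraries allows a level of up to 0.571 CPM, taking 3 reads as the floor, which covers counting error only. Levels of the tested members averaged over the 12 libraries had a median of 21.9 CPM. They ran from 4.33 CPM for Atg10, an E2-like enzyme of conjugation, to 343 CPM for the cargo receptor Tax1bp1. Fold changes below are differences of log2(CPM + 1) from limma with Benjamini-Hochberg adjustment over the 11417 genes, and a call is an adjusted p of at most 0.05. With a pseudocount of 1 they understate the change of members at a few CPM, such as Optn, Wipi1, Map1lc3a and Atg10.

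At day 3, 6 members were higher and 1 was lower in KO than in WT. That is 17.1% of those tested, where 18.4% of all genes were called (11.2% higher, 7.23% lower), so the share lies near the background. The higher members were Rb1cc1, Wipi1, Gabarap, Gabarapl1, Optn and Tax1bp1, and the lower one was Atg2b. At day 5, 13 members were higher and 3 were lower, 39.0% of those tested, against a background of 39.4% (16.5% higher, 22.9% lower). The share called was again near the background, and by direction 31.7% of members were higher and 7.32% lower. The median log2 fold change of the members was 0.09 at day 3 and 0.30 at day 5, against −0.01 and −0.08 over all genes tested. The libraries of the genotypes did not overlap for 8 members higher and 5 lower in KO at day 3, where the background was 19.0% of all genes higher and 19.1% lower, and for 19 higher and 4 lower at day 5, where it was 21.0% and 26.7%.

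The day 5 direction depends in part on scaling for genes in general. With median-of-ratios scaling in place of the library total, 20.2% of all genes were called higher and 18.4% lower at day 5, and 15 members were higher and 2 lower. Calls of all genes that were higher made up 41.9% of calls with the library total and 52.3% with median-of-ratios scaling. Without KO day 5 replicate 2, the library that stood apart, 17 members were higher and 2 lower at day 5. Of all genes, 38.9% were called without that library, against 39.4% with it, and their split by direction was not counted. The 4 members gained were Ulk1, Atg4d, Gabarapl2 and Nbr1, and the 1 lost was Atg3. At day 3 the count was less stable, and fell to 4 members without either WT day 3 replicate 2 or WT day 3 replicate 3. The share of all genes called at day 3 fell as well, from 18.4% to 13.6% and 14.2%.

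**Figure D1:**
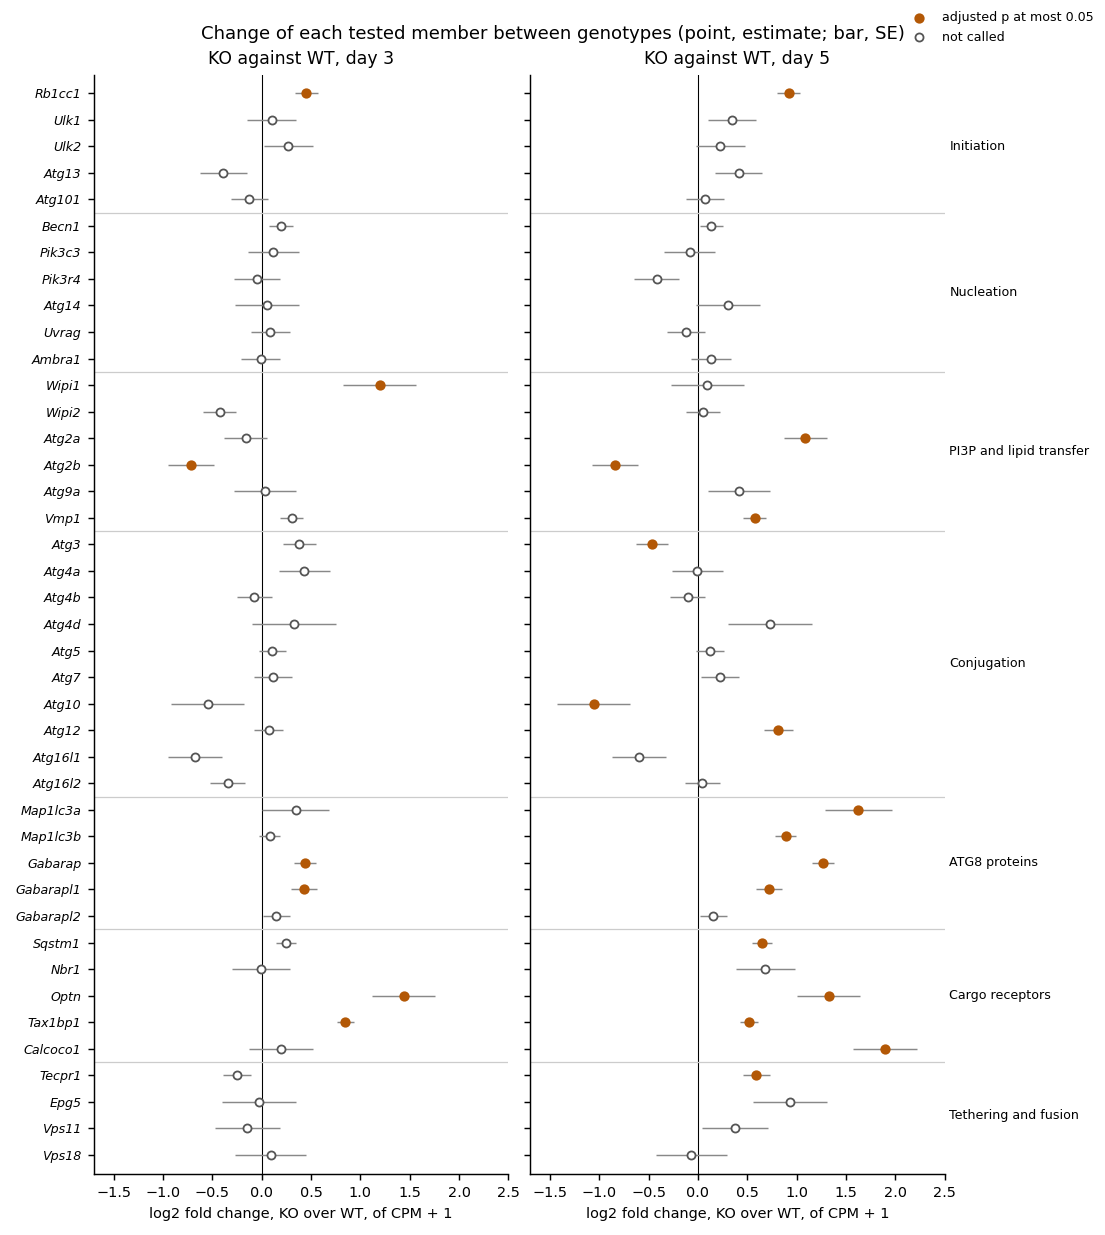
Log2 fold change (KO against WT, from log2(CPM + 1), with SE bars) of the 41 tested members at day 3 (left) and day 5 (right), grouped by role from initiation at the top to tethering at the bottom; filled points passed an adjusted p of 0.05. At day 5 the filled points are mostly to the right of 0, and 8 of the 16 are ATG8 proteins or cargo receptors, while no point of the nucleation complex is filled on either day.

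The roles hold 4 to 10 tested genes each, and differences between them in the day 5 counts were not tested. The background was 16.5% of all genes higher and 22.9% lower. Of the 5 ATG8 protein genes 4 were higher, as were 4 of the 5 cargo receptor genes. The kinase complex had 0 of 6 called, and conjugation had 1 higher and 2 lower of 10 tested. Of the other roles, the ULK1 complex had 1 higher of 5, the PI3P and lipid transfer genes had 2 higher and 1 lower of 6, and the tethering genes had 1 higher of 4. Conjugation had 1 member called with edgeR and with DESeq2, in place of 3, and tethering had 2 with edgeR. Cargo receptors had 5 with edgeR, in place of 4, and the PI3P and lipid transfer genes had 2 with DESeq2, in place of 3. The summed level of the 42 members was 2185, 2161 and 2159.9 CPM in the KO day 5 libraries, against 1495, 1543 and 1501 CPM in the WT day 5 libraries. At day 3 it was 1545, 1584 and 1478 CPM in KO and 1272, 1287 and 1245 CPM in WT, so that the genotypes did not overlap on either day and the day 5 gap was the wider. Cargo receptors made up the largest part of these sums, mainly through Tax1bp1. These are bulk libraries, in which fewer cells with a transcript and less of it in each cell cannot be told apart.

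**Figure D2:**
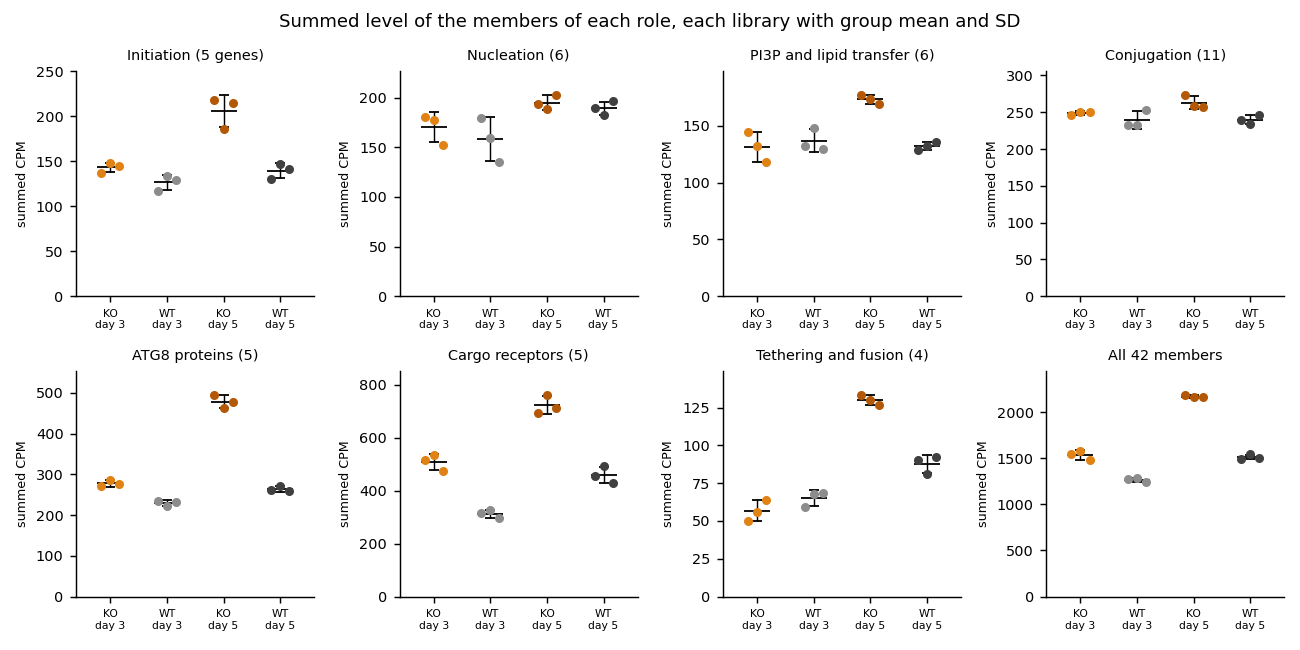
Summed CPM of the members of each role in each library (points), with the group mean and SD (bars), for KO and WT at day 3 and day 5. The ATG8 sum is 464 to 494 CPM in KO day 5 and 259.9 to 272 CPM in WT day 5. The nucleation sums of the genotypes overlap on each day, at 136 to 180 CPM over the day 3 libraries and 183 to 203 CPM over the day 5 libraries.

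Initiation is set off by the ULK1 complex, in which the kinases Ulk1 and Ulk2 are held on the scaffold Rb1cc1 (FIP200) with Atg13 and Atg101. Rb1cc1 (ENSMUSG00000025907, chromosome 1, 6206197 to 6276648, plus strand, GRCm38) was the only member of this complex called between genotypes. It had 55.7, 61.6 and 72.2 CPM in KO day 3, against 45.02, 46.5 and 45.4 CPM in WT day 3 (log2 fold change of 0.45 ± 0.12 SE at an adjusted p of 0.00991 in limma). At day 5 it had 102, 111 and 102 CPM in KO, against 53.8, 55.7 and 55.9 CPM in WT (0.92 ± 0.12 SE, limma adjusted p = 2.08e-06). On both days all 3 KO libraries lay above all 3 WT libraries, and KO day 5 was the highest group. The day 3 call was lost without KO day 3 replicate 3, its highest library (adjusted p = 0.0674 in limma). Atg13 was not called between genotypes (−0.39 at day 3, 0.41 at day 5), although its libraries did not overlap on either day. WT had 10.2 to 13.03 CPM at day 3, above all KO libraries, and 10.03 to 13.0 CPM at day 5, below all KO libraries. The change of this difference between the days was not called either (0.80). In KO, Atg13 was higher at day 5, with 14.9, 14.2 and 16.4 CPM, than at day 3, with 9.45, 9.19 and 7.66 CPM (0.73 ± 0.24 SE, limma adjusted p = 0.0201). That call was lost without KO replicate 3 of either day (adjusted p of 0.0666 and 0.0647 in limma). The kinases and Atg101 were called in no comparison. Ulk1 averaged 25.4 ± 9.92 CPM in KO day 5 and 18.8 ± 3.5 CPM in WT day 5 (SD, n = 3 each), with KO replicate 2 at 14.2 CPM and below all WT libraries.

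The class III kinase complex consists of the kinase Pik3c3 (VPS34), its regulatory partner Pik3r4 (VPS15), the scaffold Becn1, and either Atg14 or Uvrag, and Ambra1 is a regulator that binds Becn1. None of the 6 was called between genotypes on either day by limma, edgeR or DESeq2, and 0 of 6 had an unadjusted limma p under 0.05. Becn1, the most abundant of them in tags, had 91.9, 91.3 and 99.2 CPM in KO day 5, against 87.6, 88.1 and 80.8 CPM in WT day 5 (log2 fold change of 0.14 ± 0.12 SE at an adjusted p of 0.394 in limma). The KO libraries lay just above the WT libraries there, by less than the test could call. Over the 6 genes, log2 fold changes at day 5 ran from −0.42 for Pik3r4 to 0.30 for Atg14. Pik3r4 had 12.3, 12.9 and 22.1 CPM in KO day 5. Without KO day 5 replicate 3, its highest KO library, it was called lower in KO at day 5. In KO cells, Atg14 (0.91) and Ambra1 (0.57) rose at day 5 relative to day 3, with limma adjusted p of 0.0336 and 0.0304. In WT cells the same differences were 0.67 and 0.43 and were not called, and the genotypes were not shown to differ in this step (limma adjusted p of the interaction 0.803 and 0.818). Both KO calls were lost without single KO libraries, with limma adjusted p up to 0.182 for Atg14 without KO day 3 replicate 3 and up to 0.0907 for Ambra1 without the same library.

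PI3P is read by the WIPI proteins, and membrane lipid reaches the growing autophagosome through the ATG2 proteins, which transfer lipid, and the scramblases ATG9A and VMP1. The paralogs Atg2a and Atg2b differed in direction. Atg2a (ENSMUSG00000024773, chromosome 19, 6241668 to 6262335, plus strand, GRCm38) had 32.4, 27.7 and 27.8 CPM in KO day 5, against 12.3, 15.05 and 12.4 CPM in WT day 5 (log2 fold change of 1.09 ± 0.22 SE at an adjusted p of 0.000355 in limma). Its day 3 levels were 9.45, 12.4 and 13.7 CPM in KO and 13.03, 14.96 and 11.9 CPM in WT, which overlapped. KO day 5 stood above the other 3 groups, whose means ran from 11.9 to 13.3 CPM. Atg2b (ENSMUSG00000041341, chromosome 12, 105616136 to 105685211, minus strand) was lower in KO on both days. It had 24.9, 20.01 and 15.3 CPM in KO day 3, against 31.4, 31.02 and 36.9 CPM in WT day 3 (−0.72 ± 0.23 SE, limma adjusted p = 0.0363). At day 5 it had 12.3, 6.78 and 12.6 CPM in KO, against 19.9, 19.5 and 18.1 CPM in WT (−0.84 ± 0.23 SE, limma adjusted p = 0.00627). The genotypes did not overlap on either day, and Atg2b was also lower at day 5 than at day 3 in KO (−0.88) and in WT (−0.76). Its day 3 call was lost when any day 3 library other than KO replicate 1 was left out (limma adjusted p 0.0688 to 0.173), and its day 5 call with DESeq2 (adjusted p = 0.072).

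Vmp1 (ENSMUSG00000018171, chromosome 11, 86583865 to 86683836, minus strand) had 84.8, 89.4 and 87.8 CPM in KO day 5, against 54.3, 59.1 and 61.6 CPM in WT day 5 (log2 fold change of 0.58 ± 0.12 SE at an adjusted p of 0.00054 in limma). In the day 3 libraries the levels were 69.6, 68.1 and 57.4 CPM in KO, against 51.5, 57.1 and 48.8 CPM in WT, which also did not overlap but was not called (0.30 ± 0.12 SE, limma adjusted p = 0.0832). The precursor of the microRNA miR-21a lies at the 3′ end of Vmp1 on the same strand, and the tags do not separate their transcripts. Wipi1, a PI3P-binding propeller protein, had 7.96, 3.24 and 7.11 CPM in KO day 3, against 1.18, 3.32 and 1.7 CPM in WT day 3 (1.20 ± 0.37 SE, limma adjusted p = 0.0268). The groups overlapped and rest on 35 and 11 reads, and the call was lost in 7 of 24 alternatives, among them those that left out replicate 1 or 3 of either genotype at day 3, at which limma gave adjusted p of 0.0757 to 0.119. At day 5 Wipi1 had 4.53, 8.63 and 6.32 CPM in KO and 5.84, 6.69 and 5.09 CPM in WT and was not called. Atg9a and Wipi2 were called between genotypes on neither day.

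**Figure D3:**
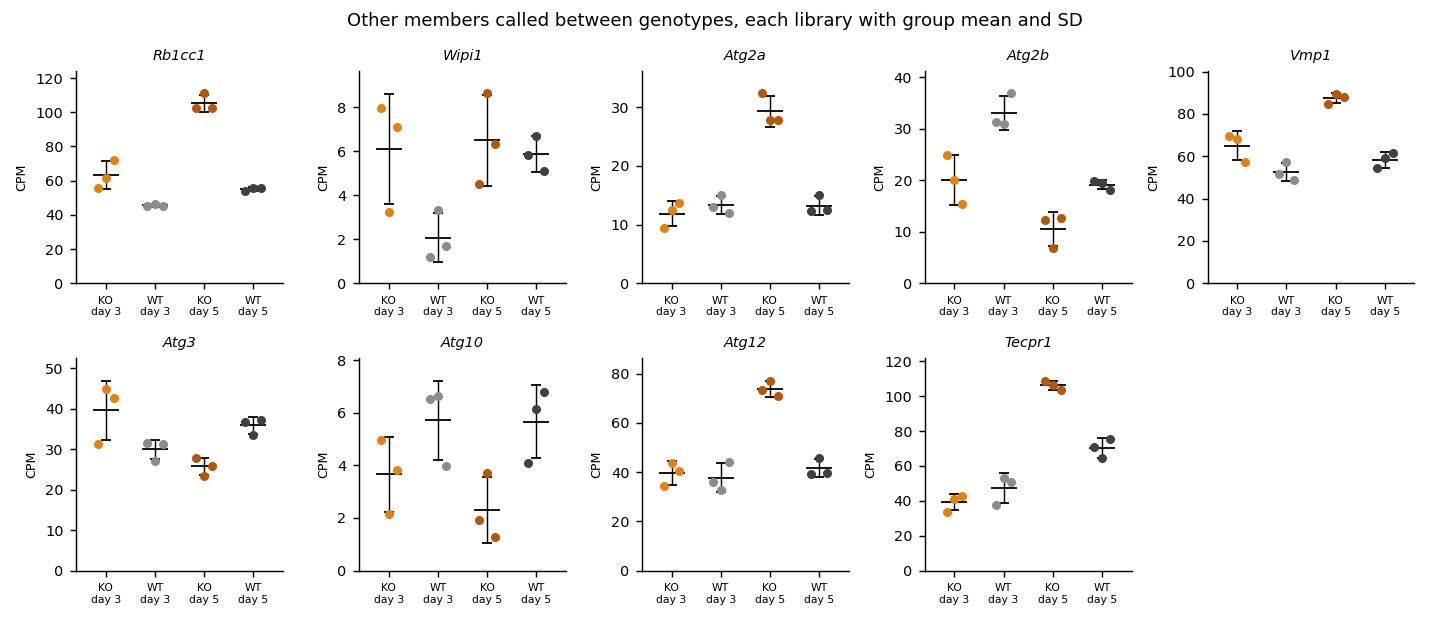
CPM of 9 members outside the ATG8 and cargo receptor roles that were called in at least 1 genotype comparison, in each library (points) with the group mean and SD (bars). By its mean, KO day 5 is the highest group for Rb1cc1, Atg2a, Vmp1, Atg12 and Tecpr1, and the lowest for Atg2b, Atg3 and Atg10. For Wipi1 it is the highest only narrowly, at 6.49 CPM against 6.10 CPM in KO day 3.

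In conjugation, the E1-like enzyme Atg7 activates Atg12 and the ATG8 proteins, Atg10 joins Atg12 to Atg5, Atg16l1 places the conjugate on the membrane, Atg3 joins the ATG8 proteins to lipid, and the ATG4 proteases process and release them. Of the 10 tested, 7 were called on neither day between genotypes. Atg5 had 53.1, 53.03 and 51.2 CPM in KO day 5 and 43.8, 50.7 and 49.7 CPM in WT day 5, and Atg7 had 27.2, 30.8 and 30.96 CPM in KO and 33.3, 18.95 and 25.4 CPM in WT (0.12 and 0.22, limma adjusted p = 0.521 and 0.384). The exceptions were Atg12, Atg3 and Atg10. Atg12 had 73.1, 77.1 and 70.8 CPM in KO day 5, against 39.1, 45.7 and 39.6 CPM in WT day 5 (log2 fold change of 0.82 ± 0.14 SE at an adjusted p of 0.000105 in limma). At day 3 it had 34.3, 43.8 and 40.5 CPM in KO and 36.1, 32.7 and 44.2 CPM in WT, which overlapped, so that KO day 5 was the high group.

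Atg3 had 27.8, 23.4 and 25.9 CPM in KO day 5, against 36.8, 33.4 and 37.3 CPM in WT day 5, with all KO libraries lower (−0.47 ± 0.16 SE, limma adjusted p = 0.0288). Its day 3 levels were 31.3, 44.9 and 42.7 CPM in KO and 31.4, 27.1 and 31.2 CPM in WT, with KO replicate 1 inside the WT range and the other KO libraries above it (0.38 ± 0.16 SE, limma adjusted p = 0.116). The day 5 call was lost in 8 of 24 alternatives, among them both other scalings, edgeR, DESeq2 (adjusted p = 0.26) and the omission of WT replicate 1 or 3 or of KO replicate 2 or 3 at day 5 (0.0526 to 0.0835 in limma). Atg10, at a few CPM, had 1.94, 3.7 and 1.26 CPM in KO day 5, against 4.09, 6.13 and 6.78 CPM in WT day 5 (−1.06 ± 0.37 SE, limma adjusted p = 0.028). In the day 3 libraries the levels were 4.97, 2.16 and 3.83 CPM in KO and 6.52, 6.65 and 3.97 CPM in WT, which overlapped. Its day 5 values rest on 11 and 30 reads, and the call was lost in 7 of 24 alternatives, among them those that left out WT replicate 2 or 3 or KO replicate 1 or 3 at day 5 (0.0667 to 0.122 in limma). Atg16l1 was lower in all KO than in all WT libraries on both days, with group means of 9.99 ± 4.06 CPM in KO and 15.6 ± 0.856 CPM in WT at day 3, and 11.6 ± 1.27 CPM in KO and 18.2 ± 3.16 CPM in WT at day 5 (SD, n = 3 each). It passed the test on neither day (limma adjusted p = 0.0907 and 0.0861).

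The ATG8 proteins are the ubiquitin-like tags of the autophagosome membrane, divided into an LC3 branch (Map1lc3a, Map1lc3b) and a GABARAP branch (Gabarap, Gabarapl1, Gabarapl2). Gabarap (ENSMUSG00000018567, chromosome 11, 69991143 to 69994951, plus strand, GRCm38) had 195, 207 and 174 CPM in KO day 5, against 77.7, 89.7 and 70.1 CPM in WT day 5 (log2 fold change of 1.27 ± 0.11 SE at an adjusted p of 1.13e-08 in limma). At day 3 it had 83.5, 85.4 and 84.2 CPM in KO, against 64.6, 55.9 and 65.8 CPM in WT (0.44 ± 0.11 SE, limma adjusted p = 0.00857). All KO libraries exceeded all WT libraries on both days, and KO day 5 stood at 2.42 times the WT mean. The day 3 call was lost without WT day 3 replicate 2, the lowest WT library (adjusted p = 0.0572 in limma).

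Map1lc3b (ENSMUSG00000031812, chromosome 8, 121590361 to 121598760, plus strand), the LC3B gene whose product is the usual marker of autophagosomes, had 117, 111 and 112 CPM in KO day 5, against 59.01, 63.5 and 59.9 CPM in WT day 5 (0.89 ± 0.11 SE, limma adjusted p = 9.74e-07). Its day 3 levels were 59.2, 63.8 and 57.4 CPM in KO and 59.2, 54.3 and 56.7 CPM in WT, which overlapped. KO day 5 stood above the other 3 groups, whose means ran from 56.7 to 60.8 CPM. Zcchc14 runs into the 3′ end of Map1lc3b on the other strand, with a mean of at most 1.59 CPM in any group. The annotated gene Gm20388 also overlaps this end, on the same strand. No level is available for Gm20388, so its share of these tags cannot be told. Map1lc3a, the scarcer LC3 gene, had 12.3, 8.63 and 10.1 CPM in KO day 5, against 2.34, 2.79 and 2.83 CPM in WT day 5 (1.63 ± 0.34 SE, limma adjusted p = 0.000583). In the day 3 libraries the levels were 2.49, 5.95 and 4.38 CPM in KO and 2.96, 2.22 and 3.97 CPM in WT, which overlapped.

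Gabarapl1 had 78.3, 73.4 and 86.5 CPM in KO day 5, against 43.8, 49.05 and 50.3 CPM in WT day 5 (0.72 ± 0.13 SE, limma adjusted p = 0.000153). At day 3 it had 52.7, 56.2 and 61.3 CPM in KO, against 48.6, 37.1 and 40.8 CPM in WT (0.43 ± 0.13 SE, limma adjusted p = 0.0281). The genotypes did not overlap on either day, but the day 3 call was lost in 6 of 24 alternatives, among them those that left out replicate 2 or 3 of either genotype at day 3 (0.0674 to 0.136 in limma). Gabarapl2 had 91.9, 64.1 and 94.1 CPM in KO day 5, against 77.7, 66.9 and 76.8 CPM in WT day 5, and was not called (0.16 ± 0.14 SE, limma adjusted p = 0.392). KO replicate 2 was below all WT libraries there, and without that library Gabarapl2 was called higher. The GABARAP branch summed to 365, 344 and 355 CPM in KO day 5 and 199, 206 and 197 CPM in WT day 5. The LC3 branch summed to 129, 119.6 and 123 CPM in KO day 5 and 61.3, 66.3 and 62.7 CPM in WT day 5. At day 3 the GABARAP sums were 209 to 217 CPM in KO and 165 to 172 CPM in WT and did not overlap, while the LC3 sums were 61.7 to 69.8 CPM in KO and 56.5 to 62.2 CPM in WT and did.

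**Figure D4:**
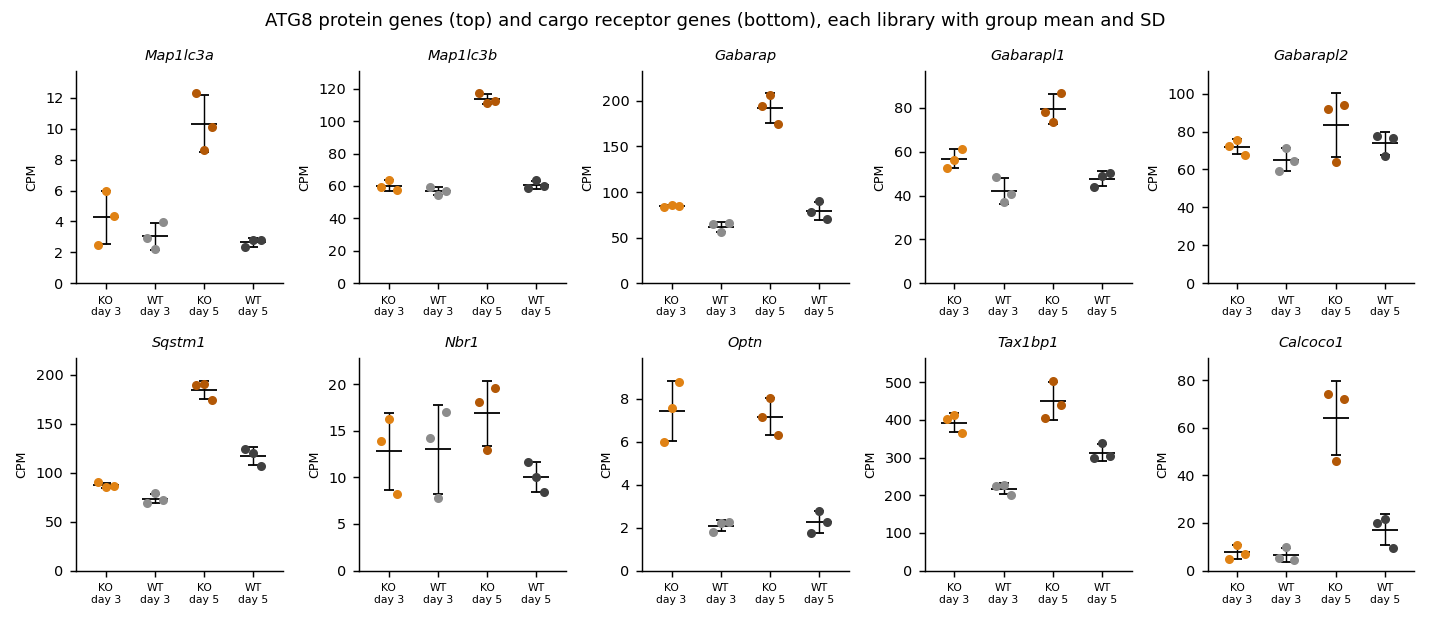
CPM of the 5 ATG8 protein genes (top row) and the 5 cargo receptor genes (bottom row) in each library (points), with the group mean and SD (bars). KO day 5 is the highest group for 9 of these 10 genes by its mean, and Optn averages slightly more in KO day 3 (7.43 CPM) than in KO day 5 (7.15 CPM).

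Cargo receptors carry an ATG8-binding motif and link ubiquitinated or other cargo to the membrane. Tax1bp1 (ENSMUSG00000004535, chromosome 6, 52713729 to 52766780, plus strand) was the most abundant member in tags. It had 401, 414 and 364 CPM in KO day 3, against 225, 227 and 201 CPM in WT day 3 (log2 fold change of 0.85 ± 0.09 SE at an adjusted p of 5.27e-07 in limma). At day 5 it had 406, 504 and 440.3 CPM in KO, against 298, 338 and 303 CPM in WT (0.52 ± 0.09 SE, limma adjusted p = 8.40e-05). The genotypes were far apart at day 3 and closer at day 5, though the change in the difference was not called (−0.33, limma adjusted p = 0.0968). Optn, the receptor optineurin, had 5.97, 7.57 and 8.75 CPM in KO day 3, against 1.78, 2.22 and 2.27 CPM in WT day 3 (1.44 ± 0.32 SE, limma adjusted p = 0.00265). At day 5 it had 7.12, 8.02 and 6.32 CPM in KO, against 1.75, 2.79 and 2.26 CPM in WT (1.33 ± 0.32 SE, limma adjusted p = 0.00204). KO stood at 3.56 times the WT mean at day 3 and 3.16 times at day 5, on 11 or 12 reads in each WT group. Tax1bp1 and Optn were the members whose day 3 call held in all 24 alternatives.

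Sqstm1 (ENSMUSG00000015837, chromosome 11, 50199366 to 50210827, minus strand) encodes p62, a receptor that is itself degraded by autophagy. It had 189.6, 189.9 and 174 CPM in KO day 5, against 124, 120.4 and 107 CPM in WT day 5 (0.65 ± 0.10 SE, limma adjusted p = 1.81e-05). Its day 3 levels were 89.99, 84.9 and 85.9 CPM in KO and 69.3, 78.7 and 72.02 CPM in WT, which did not overlap but was not called (0.24 ± 0.10 SE, limma adjusted p = 0.0953). Calcoco1 (ENSMUSG00000023055, chromosome 15, 102706777 to 102722178, minus strand), a receptor for parts of the endoplasmic reticulum and Golgi, had 74.4, 46.2 and 72.02 CPM in KO day 5, against 19.9, 21.7 and 9.61 CPM in WT day 5 (1.90 ± 0.32 SE, limma adjusted p = 6.84e-05). In the day 3 libraries the levels were 4.97, 10.8 and 7.11 CPM in KO and 5.33, 9.97 and 4.54 CPM in WT, which overlapped. It gave the highest log2 fold change of all members at day 5, with KO replicate 2 the lowest of the KO libraries but still above all WT libraries. Nbr1 averaged 16.9 ± 3.49 CPM in KO day 5 and 10.1 ± 1.61 CPM in WT day 5 (SD, n = 3 each) and was not called (0.68 ± 0.30 SE, limma adjusted p = 0.0733).

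In tethering and fusion, Tecpr1 links the ATG12 conjugate to PI3P on maturing membranes, Epg5 tethers autophagosomes to lysosomes, and Vps11 and Vps18 are core subunits of the HOPS tether. Tecpr1 had 109, 107 and 104 CPM in KO day 5, against 70.7, 64.7 and 75.7 CPM in WT day 5 (0.59 ± 0.14 SE, limma adjusted p = 0.00177). At day 3 it had 33.8, 41.1 and 42.7 CPM in KO and 37.3, 53.2 and 51.04 CPM in WT, which overlapped with KO on the lower side (−0.25). Epg5 had 8.41, 7.4 and 7.58 CPM in KO day 5, all above the 5.84, 2.23 and 3.39 CPM in WT day 5, and narrowly missed the threshold (0.94 ± 0.37 SE, limma adjusted p = 0.051). Vps11 and Vps18 were called in no comparison.

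The days were compared within each genotype. In KO, 15 members were higher and 2 lower at day 5 than at day 3, 41.5% of those tested, where 35.1% of all genes were called (15.4% higher, 19.7% lower). In WT, 5 members were higher and 1 lower, 14.6% of those tested, where 10.9% of all genes were called (7.17% higher, 3.77% lower). With median-of-ratios scaling the background was 17.4% higher and 17.7% lower in KO, and 5.94% higher and 4.76% lower in WT. Members higher at day 5 in both genotypes were Tecpr1, Sqstm1 and Calcoco1, and Atg2b was lower in both. Tecpr1 was higher at day 5 than at day 3 by 1.42 ± 0.14 SE, limma adjusted p = 6.13e-08 in KO and by 0.58 ± 0.14 SE, limma adjusted p = 0.00854 in WT. Sqstm1 was higher by 1.08 ± 0.10 SE, limma adjusted p = 2.76e-08 in KO and by 0.67 ± 0.10 SE, limma adjusted p = 8.49e-05 in WT. Calcoco1 was higher by 2.94 ± 0.32 SE, limma adjusted p = 3.14e-07 in KO and by 1.24 ± 0.32 SE, limma adjusted p = 0.0153 in WT, where its WT libraries of the 2 days overlapped. These genes moved the same way in both genotypes, and the step was larger in KO by the interaction test for Tecpr1 and Calcoco1, but not for Sqstm1 (limma adjusted p = 0.0612). The WT call of Atg2b was lost in 10 of 24 alternatives, among them leaving out any 1 of the 6 WT libraries (adjusted p of 0.0808 to 0.139 in limma). In WT, Tecpr1 lost its call without WT day 3 replicate 1 or WT day 5 replicate 3, and Calcoco1 without replicate 1 or 3 of day 3 or replicate 1 or 2 of day 5 (adjusted p of 0.0511 to 0.091 in limma). Tax1bp1 was higher at day 5 in WT (0.52 ± 0.09 SE, limma adjusted p = 0.000432), whereas in KO the difference was not called (0.19 ± 0.09 SE, limma adjusted p = 0.107). Gabarap was higher at day 5 in KO (1.17 ± 0.11 SE, limma adjusted p = 4.78e-08), and in WT its libraries did not overlap but it missed the threshold (0.34 ± 0.11 SE, limma adjusted p = 0.0552). The WT count fell to 2 members without WT day 3 replicate 1, where 7.23% of all genes were called. It fell to 3 without WT day 3 replicate 3 (8.12% of all genes), WT day 5 replicate 1 (7.44%) or WT day 5 replicate 2 (7.69%). The share over all genes was 10.9% with all libraries, so it fell as well. The comparisons of days and of genotypes share libraries, so their values are not independent.

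The change of the genotype difference between the days was tested directly as the interaction, the log2 fold change at day 5 minus that at day 3. It was higher for 6 members and lower for 1, 17.1% of those tested, where 12.9% of all genes were called (4.01% higher, 8.85% lower). With median-of-ratios scaling the background was 5.4% higher and 6.5% lower, and 8 members were higher and 1 lower. The higher members were Atg2a (1.25 ± 0.31 SE, limma adjusted p = 0.0085), Gabarap (0.83 ± 0.16 SE, limma adjusted p = 0.00119), Map1lc3b (0.81 ± 0.15 SE, limma adjusted p = 0.00103) and Tecpr1 (0.84 ± 0.20 SE, limma adjusted p = 0.00612), which kept the call in all 23 alternatives. Calcoco1 (1.71 ± 0.46 SE, limma adjusted p = 0.0155) and Atg12 (0.75 ± 0.20 SE, limma adjusted p = 0.0178) were also higher. Calcoco1 lost the call without WT day 3 replicate 2, KO day 3 replicate 1 or WT day 5 replicate 3, and Atg12 without replicate 3 of WT or replicate 1 of KO at day 3 (adjusted p of 0.0513 to 0.0615 in limma). Atg3 was the lower one (−0.85 ± 0.23 SE, limma adjusted p = 0.0182), and it lost the call without replicate 2 of either genotype at day 3 (adjusted p of 0.0502 and 0.0628 in limma). The median of the members was 0.25, against −0.11 over all genes. Over all 41 tested members, 17 were called in a genotype comparison, 6 of them on both days (Rb1cc1, Atg2b, Gabarap, Gabarapl1, Optn and Tax1bp1), and 20 were called in no comparison at all. The matching shares over all genes were not counted, so these counts have no background beside them.

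The promoters of all members with a RefSeq window, whether or not they changed, were compared with those of other genes, using RefSeq windows from 250 bases before to 50 after each transcript start (GRCm38.p6). Of the 42 members, 34 had a window, 40 windows in all. The member windows held a median of 20 CG dinucleotides, with a range of 1 to 55, against a median of 7 over 32851 windows of all genes, and a median GC content of 61.0% against 52.7%. The windows of all genes cover 27025 genes, whether or not they had enough reads to be tested. The members were not compared with tested genes alone, so these differences are not shown to be particular to them. The E-box CACGTG, searched on both strands, was in 4 of the 40 windows (Atg14, Atg3, Atg5 and Atg7), 10% against 7.15% of all windows. The cyclic AMP response element TGACGTCA was in 2 (Atg16l2 and Atg5), 5% against 1.79%, and the forkhead motif GTAAACA was in 0, against 3.65% of all windows. A match is only a match of letters. For 3 genes whose KO day 5 level stood above the other 3 groups, the bases upstream of the annotated start are shown, 5′ to 3′ on the gene's strand, with each CG dinucleotide in capitals. Map1lc3b is shown for chr8:121590188-121590360 (plus strand, 173 bases, 17 CG), Calcoco1 for chr15:102722179-102722428 (minus strand, 250 bases, 14 CG) and Atg2a for chr19:6241418-6241667 (plus strand, 250 bases, 19 CG).
Map1lc3b: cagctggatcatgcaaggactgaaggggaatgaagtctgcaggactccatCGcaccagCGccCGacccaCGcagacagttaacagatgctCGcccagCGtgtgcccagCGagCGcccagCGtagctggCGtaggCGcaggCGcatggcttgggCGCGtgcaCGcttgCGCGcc
Calcoco1: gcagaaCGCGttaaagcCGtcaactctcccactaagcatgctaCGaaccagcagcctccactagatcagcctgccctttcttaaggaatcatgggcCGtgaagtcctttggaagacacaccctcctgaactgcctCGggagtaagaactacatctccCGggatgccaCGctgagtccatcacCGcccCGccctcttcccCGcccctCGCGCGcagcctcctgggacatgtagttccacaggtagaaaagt
Atg2a: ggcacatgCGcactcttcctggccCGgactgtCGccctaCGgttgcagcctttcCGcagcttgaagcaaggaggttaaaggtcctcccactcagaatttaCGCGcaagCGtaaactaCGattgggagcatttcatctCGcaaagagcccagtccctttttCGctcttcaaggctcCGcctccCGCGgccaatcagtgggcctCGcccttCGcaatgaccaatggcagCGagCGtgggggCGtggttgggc
The stretches shown differ in length, so their CG counts do not compare directly. In the full windows of 300 bases, Map1lc3b had 34 CG dinucleotides, Calcoco1 had 17 and Atg2a had 28. Any link of CG content with the levels of these genes was not tested.

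Genes around the core machinery were followed in 5 further lists (78 genes, 71 tested): signalling upstream of autophagy, transcription factors of autophagy and lysosome genes, other early machinery with its inhibitors, selective receptors, and fusion with lysosomes. At day 3, 11 of the 71 were higher and 4 lower in KO (15.5% and 5.63%), near the background of 11.2% and 7.23%. At day 5, 19 were higher and 10 lower (26.8% and 14.1%), against the background of 16.5% and 22.9%. The early machinery list had 6 higher and 2 lower of 14 at day 5, the upstream signalling list 5 higher and 2 lower of 23, the transcription factor list 3 higher and 1 lower of 8, and the fusion list 2 of 13, both higher. The selective receptors were the list with more genes lower, 3 higher and 5 lower of 13.

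Trp53inp1, which binds ATG8 proteins and is a known p53 target, had 325, 308 and 272 CPM in KO day 5, against 81.8, 59.6 and 68.4 CPM in WT day 5 (log2 fold change of 2.10 ± 0.12 SE at an adjusted p of 3.14e-11 in limma). Its day 3 levels were 94.5, 81.7 and 84.8 CPM in KO, against 44.4, 36.6 and 44.8 CPM in WT (1.04 ± 0.12 SE, limma adjusted p = 3.16e-06). All KO libraries were above all WT libraries on both days. Its paralog Trp53inp2 was higher in KO as well (1.94 at day 3, 1.32 at day 5). The sestrins restrain mTORC1, the kinase complex that holds autophagy back. Sesn3 had 146, 165 and 161 CPM in KO day 5, against 61.9, 58.5 and 85.3 CPM in WT day 5 (1.21 ± 0.13 SE, limma adjusted p = 1.68e-07). Sesn1 had 16.4, 24.3 and 21.3 CPM in KO day 3, against 5.92, 6.65 and 11.3 CPM in WT day 3 (1.30 ± 0.24 SE, limma adjusted p = 0.000486). Mtor itself was not called on either day (−0.23 at day 3, 0.02 at day 5). Foxo1, a forkhead factor that drives autophagy genes in several cell types, had 146, 152 and 173 CPM in KO day 5, against 85.3, 95.3 and 95.5 CPM in WT day 5 (0.76 ± 0.11 SE, limma adjusted p = 6.64e-06). Tfeb, the best known activator of lysosome genes, was not called (−0.19 at day 5).

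Other genes of these lists were lower in KO. Atf4, the factor of the amino acid and stress response, had 524, 426 and 517 CPM in KO day 5, against 737, 881 and 769 CPM in WT day 5 (log2 fold change of −0.70 ± 0.09 SE at an adjusted p of 1.41e-06 in limma). The WT libraries were higher at day 5 than at day 3 (0.78), a step not called in KO (0.14). The mitophagy receptor Bnip3 had 130.1, 137 and 155 CPM in KO day 5, against 272, 303 and 282 CPM in WT day 5 (−1.02 ± 0.09 SE, limma adjusted p = 1.31e-08). At day 3 its genotypes overlapped, with 334, 339 and 353 CPM in KO and 309, 331 and 382 CPM in WT. Bnip3l, the related receptor also known as NIX, had 147, 161 and 173 CPM in KO day 3, against 195, 219 and 220.0 CPM in WT day 3 (−0.40 ± 0.09 SE, limma adjusted p = 0.00359), and was lower at day 5 too (−0.33). Phb2, an inner mitochondrial membrane protein that serves as a mitophagy receptor, had 173, 155 and 133 CPM in KO day 5, against 262, 246 and 232 CPM in WT day 5 (−0.68 ± 0.10 SE, limma adjusted p = 5.94e-06). The receptor for the endoplasmic reticulum Retreg1 went the other way, with 68.6, 72.5 and 72.7 CPM in KO day 3, against 33.8, 40.4 and 42.5 CPM in WT day 3 (0.86 ± 0.15 SE, limma adjusted p = 0.000377). Of the lysosomal membrane proteins, Lamp2 had 41.3, 53.5 and 56.9 CPM in KO day 3, against 27.2, 28.8 and 34.03 CPM in WT day 3 (0.73 ± 0.15 SE, limma adjusted p = 0.0015), whereas Lamp1 was not called (0.09).

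**Figure D5:**
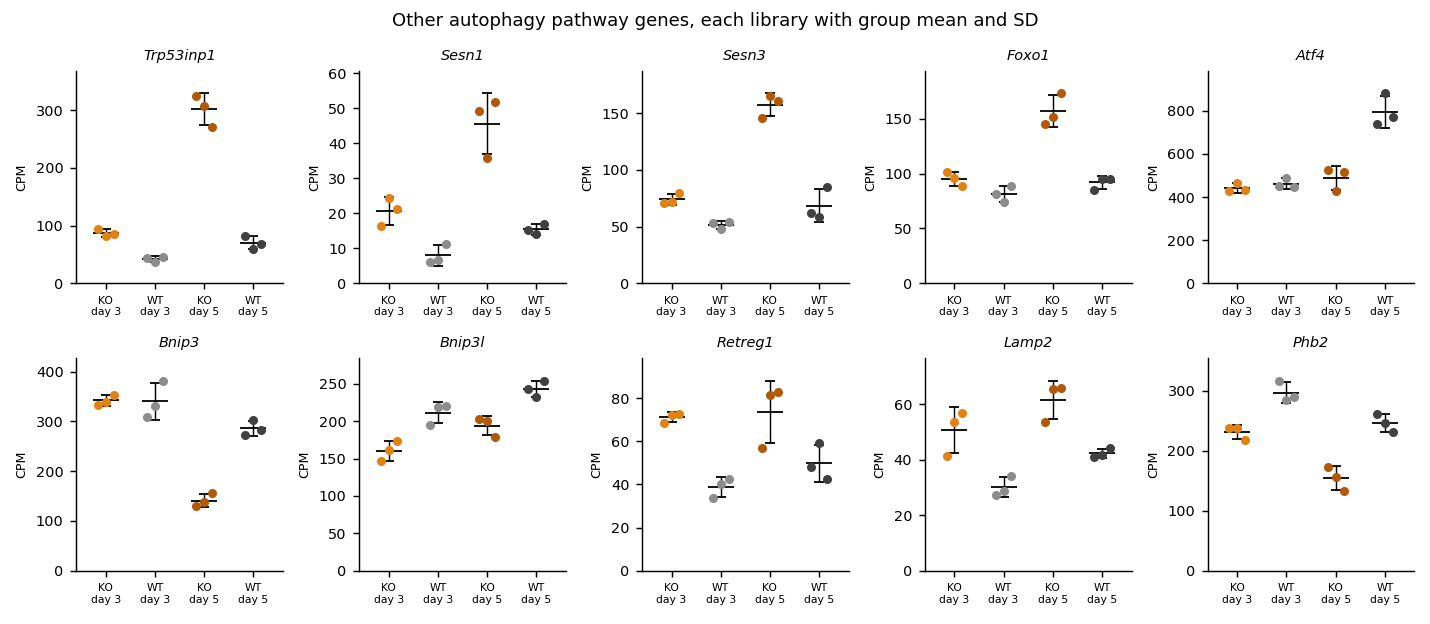
CPM of 10 genes around the autophagy machinery in each library (points), with the group mean and SD (bars). Trp53inp1, Sesn1, Sesn3 and Foxo1 are highest in KO day 5, Bnip3 and Phb2 are lowest there, and Atf4 is highest in WT day 5.

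Some genes on the lists of markers of other cells differed between genotypes. The background was 11.2% of all genes higher and 7.23% lower at day 3, and 16.5% and 22.9% at day 5. In the list for myeloid and dendritic cells, 10 of 16 genes were tested, of which 5 rose in KO at day 3 and 8 at day 5. The whole list summed to 103 to 148 CPM in KO day 3, 39.7 to 53.9 CPM in WT day 3, 238 to 309 CPM in KO day 5 and 66.1 to 70.2 CPM in WT day 5. The genes higher on both days were H2-Aa, H2-Ab1, H2-Eb1, Cd74 and Fcer1g, with Itgam, Itgax and Cd68 added at day 5, while Mpo and S100a9 had 0 reads and Lyz2 and Adgre1 had 1 read over all 12 libraries. Of 3 tested NK cell markers 2 were higher on each day, Nkg7 and Eomes at day 3 and Nkg7 and Klrb1c at day 5. Nkg7 and Eomes were also well above the floor in WT, at 436 and 89.8 CPM in WT day 3. Klrb1c averaged 13.3 CPM in KO day 5 and 0.761 CPM in WT day 5, and Ncr1 had 0 reads. Of 6 tested erythroid and platelet markers, 2 were higher at day 3 and 1 at day 5, with sums of 15.9 to 57.4 CPM in KO day 3 and 5.33 to 16.6 CPM in WT day 3. B cell markers summed to at most 7.03 CPM in any library. Of the 7 tested CD8 T cell markers, all with reads in every group, 3 were lower in KO at day 3 and 4 were higher at day 5, and Trac had 0 reads in all libraries. In the CD4 T cell list, Cd4 had 5 reads over the 12 libraries, and the list summed to 35.00 to 42.2 CPM in KO day 3, 45.98 to 73.2 CPM in WT day 3, 42.1 to 85.1 CPM in KO day 5 and 45.2 to 51.8 CPM in WT day 5, nearly all of it Ctla4. Of its 3 tested genes, Foxp3 was lower in KO at day 3, with 1 read in KO and 19 in WT (limma adjusted p = 0.0178), and Cd40lg at day 5, with 0 reads in KO and 7 in WT (limma adjusted p = 0.0194). Ctla4 was called on neither day between genotypes. The single tested stromal marker was not called. Their part in the member results was not tested.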

How the data were processed

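CD8 T cell libraries were made from 500 ng of RNA with a QuantSeq 3′ kit, per the labels' protocols. The deposited values are named TPM, but 100% of them are whole multiples of the value of 1 read (within 0.001 read) and each library sums to 1000000, so the authors' values are treated as CPM: whole reads divided by the library total. The builds GRCm39 and mm10 are named in the submitters' processing notes without a role. The sources used here do not give the aligner, counting tool or strand setting, so reads of overlapping genes may be shared. Kri1, with group means of 33.75 to 42.5 CPM, overlaps the 3′ end of Atg4d (4.19 to 8.99 CPM) on the other strand. Fchsd2, with 20.5 to 28.0 CPM, overlaps that of Atg16l2 (21.4 to 30.2 CPM) in the same way. Coordinates are GENCODE M21 (GRCm38), matched by Ensembl identifier.

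Here log2(CPM + 1) values of genes with at least 1 CPM in at least 3 libraries were fitted with limma 3.58.1 (R 4.3.3), with 1 mean per group, trended empirical Bayes moderation and 21.1 total degrees of freedom. Tests are two-sided, adjusted over all 11417 genes, with a threshold of 0.05. edgeR 4.0.16 and DESeq2 1.42.0 were run on whole reads recovered from the deposited CPM. The test was also run on simulated counts with known changes in few genes and the same dispersion for every gene. Those settings differ from these data, so that run does not vouch for the calls here. Alternatives were pseudocounts of 0.1 and 5, other filters, median-of-ratios and quantile scaling, the replicate block, other moderation, only the libraries compared, and leaving out each library. The design had taken the values as TPM, and its log-scale test was kept. No pairing of same-numbered libraries was seen, and the main fit used none. The members and lists were chosen with earlier results of these data known. Per-library values are given for members called in a genotype comparison or the interaction, and other pathway genes by the smallest adjusted p of each genotype comparison. Some others, such as Mtor, Tfeb and Lamp1, were named after their values were seen.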

Additional observations from a re-analysis of the deposited data

Results flagged for a closer look

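For 7 members the genotype difference itself changed between the days, by limma's test of the interaction (log2 fold change at day 5 minus that at day 3, 3 libraries a group). It was 0.84 for Tecpr1, 0.81 for Map1lc3b, 0.83 for Gabarap, 1.71 for Calcoco1, 0.75 for Atg12, 1.25 for Atg2a and −0.85 for Atg3. For the first 6 the KO level, relative to WT, was higher at day 5 than at day 3, and for Atg3 it was lower. Over all genes, 12.9% were called in this test.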

How the results depend on the processing

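None of the 53 called member results changed sign in any alternative. At day 3, 7 members were called by the test used here, 4 with DESeq2 and 4 to 7 when 1 library was left out. The share of all genes called at day 3 was 18.4%, 12.5% with DESeq2 and 13.1% to 23.9% when 1 library was left out. At day 5 the count was 16, and 14 to 19 with 1 library left out. The matching share of all genes was 39.4%, and 34.13% to 39.55%. For day 5 against day 3 the count in WT was 6 (10.9% of all genes), and 2 to 7 with 1 library left out (7.21% to 15.7%). It was 3 without the trend, where 6.77% of all genes were called. In KO the count was 17, and 13 to 17, where the share of all genes was 35.1%, and 29.4% to 34.8%. For the interaction it was 7, and 5 to 8, where the share was 12.9%, and 9.82% to 15.5%. With the replicate block the counts were 7, 17, 6, 16 and 7 in the same order. The shares of all genes with the block were 18.15%, 39.3%, 10.8%, 35.0% and 12.9%. No pairing by replicate number was seen, as correlations of same-numbered libraries ran from −0.01 to 0.04 over 18 pairs. A shared source of same-numbered libraries is not excluded by this. Of the day 5 calls, 13 of 16 held in all 24 alternatives, and Atg2b, Atg3 and Atg10 did not. Members at a few CPM rest on few reads: Optn on 11 and 12 reads in the WT groups, Wipi1 on 11 reads in WT day 3, Atg10 on 11 reads in KO day 5. With median-of-ratios scaling, the median log2 fold change of all genes at day 5 was 0.01 in place of −0.08, and that of the members 0.40 in place of 0.30.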
